A study of Mus musculus with 8 samples.

Results

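Spp1, which encodes the secreted protein osteopontin, was described together with genes of its receptors (Cd44, Itgav and Itgb1), of the leukocyte integrin LFA-1 and its ligands (Itgal, Itgb2, Icam1 and Icam2) and of the selectin ligand PSGL-1 (Selplg). These 9 genes were taken by symbol from the 25230 symbols of the count table. They were selected on earlier results from these same libraries, in which the p-value of Spp1 and the fold change of Icam1 between the 2 groups were already known, together with the known binding of their products to those of the other genes. The cells were intraepithelial lymphocytes (IELs) of the gut, most of which are T cells, from C57BL/6J mice whose age and sex the labels do not give. Anti-CD3, an antibody that stimulates T cells through their receptor complex, was injected into all 8 mice at 35 µg, so the 2 groups share it and no unstimulated group was compared. With it, 4 mice were given PBS and 4 the GLP-1 receptor agonist exendin-4 (Ex4) at 10 nmol/kg. Cells were collected 3 hours later, enriched on Percoll, sorted for the leukocyte protein CD45 and profiled by strand-specific mRNA sequencing, with 13386889 to 31843413 gene counts per library.

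Osteopontin is a secreted, phosphorylated matrix protein and cytokine made by activated T cells, macrophages and epithelial cells, among others. It binds integrins such as those built on the αV chain through an arginine-glycine-aspartate motif, and it also binds CD44, the receptor for hyaluronan. Integrins are pairs of an α and a β chain. LFA-1, the pair of the Itgal and Itgb2 products, binds ICAM-1 and ICAM-2 on partner cells once signals from inside the lymphocyte have switched it to its active form, and PSGL-1 carries the sugars that selectins recognise.

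Spp1 was the member with the widest separation of the groups, and the other members differed less. Because that contrast chose the members, their differences between PBS and Ex4 are given as a description. Of the 9 members, all 9 passed the filter on low counts and 0 passed an adjusted p of 0.05 over the 14691 genes tested (edgeR quasi-likelihood test, Benjamini-Hochberg), where 2 genes, or 0.0136%, did, both of them higher with Ex4. Spp1 and Icam1 had an unadjusted p under 0.05, both lower with Ex4, against 7.61% of all genes in either direction, 3.9% lower and 3.71% higher. DESeq2 called 1 member, Spp1, among 54 genes or 0.319% of those it tested (0.136% lower), and limma-voom called 0. The groups did not overlap for 1 member, Spp1, against 4.95% of all genes in either direction, 2.66% lower and 2.29% higher. The median log2 fold change of the members was -0.24, with 6 of 9 below 0, and that of all genes tested was 0.02, with 47.1% below 0. The choice of members used this contrast, and nothing is read from these counts.

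The sort was for CD45, which all leukocytes carry, and T cell transcripts were abundant. All 10 markers of IELs and T cells were detected in CPM (counts scaled by TMM library size, the unit used throughout), and most of their sum was the granzyme gene Gzma, at 30613.8 to 47144.8 CPM with PBS and 42028.9 to 54724.7 CPM with Ex4. The T cell receptor complex gene Cd3e was at 717.4 ± 166.7 and 808.2 ± 180.9 CPM. Cd8a, named after its values were seen, was lower in every Ex4 library, at 1363.1 to 2074.4 CPM with PBS and 952.8 to 1219.0 CPM with Ex4 (log2 fold change -0.59, edgeR adjusted p = 0.351). Cd8b1, which encodes the other CD8 chain, had a log2 fold change of 0.4 (edgeR adjusted p = 0.685). Of the 10 markers, 6 had a higher fitted mean with Ex4 and 4 a lower one (median log2 fold change 0.09). Markers of other cells were present too. The 12 epithelial markers summed to 501.3 to 1182.5 CPM with PBS and 287.3 to 628.5 CPM with Ex4, and all 12 had a lower fitted mean with Ex4 (median log2 fold change -0.57). The 12 macrophage and monocyte markers summed to 88.8 to 235.9 and 86.7 to 182.5 CPM. The 8 B and plasma cell markers summed to 857.0 to 1468.9 and 262.8 to 2217.2 CPM, of which Jchain alone was 511.3 to 1304.2 and 145.6 to 1761.8 CPM. The 12 stromal and endothelial markers summed to 9.42 to 20.2 and 6.8 to 34.3 CPM, with Vwf (1.72 to 13.7 CPM) and Col1a1 (2.17 to 11.4 CPM) detected in all 8 libraries and Emcn in 0. The 8 neutrophil markers summed to 4.52 to 29.4 and 11.7 to 39.1 CPM, and all 6 that were tested had a higher fitted mean with Ex4 (median log2 fold change 0.54). PBS 1 held the highest sums of macrophage markers (235.9 CPM) and of mast cell markers (205.1 CPM against 45.8 to 80.9 CPM in the other 7 libraries). Of that mast cell sum in PBS 1, 145.8 CPM was the single gene Kit. PBS 2 and Ex4 3 had the fewest genes with a count, 16639 and 17116, where the other 6 had 17934 to 19335. Leaving out this pair gave 0 called members as well. In bulk RNA, fewer cells of a type and less RNA per cell cannot be told apart.

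Spp1 lies on chromosome 5 from 104435118 to 104441050 on the forward strand in GENCODE M21 (GRCm38, the mm10 of the submitters' processing notes). The upstream 250 bases of Spp1 and Icam1 are shown because these 2 members had the largest differences between the groups. They come from the RefSeq promoter table for GRCm38.p6, in which 5 of the 9 members were found. Both read 5′ to 3′ on the forward strand and end at the base before the RefSeq start, at chr5:104434861-104435110 for Spp1 and chr9:21015690-21015939 for Icam1. Capitals mark the motif found in each.
Spp1: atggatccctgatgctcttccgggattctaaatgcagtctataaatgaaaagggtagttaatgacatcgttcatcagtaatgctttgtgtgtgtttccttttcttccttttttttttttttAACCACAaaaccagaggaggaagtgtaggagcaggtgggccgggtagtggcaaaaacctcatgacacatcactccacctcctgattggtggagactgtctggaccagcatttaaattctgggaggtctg
Icam1: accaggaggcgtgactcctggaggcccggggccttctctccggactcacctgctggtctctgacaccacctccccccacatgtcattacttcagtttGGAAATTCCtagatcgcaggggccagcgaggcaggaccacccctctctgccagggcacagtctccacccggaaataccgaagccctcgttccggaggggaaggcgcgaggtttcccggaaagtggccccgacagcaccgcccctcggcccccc

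Motifs were searched as exact letters on both strands of the 32851 such windows in the table. The Spp1 window held AACCACA, the core recognised by RUNX factors, from base 129 to base 123 before the start, as did 4.4% of all windows. The Icam1 window held GGAAATTCC, a form of the NF-κB site, from base 153 to base 145 before the start, as did 0.286% of all windows. AACCACA and GGAAATTCC were each in 1 of the 5 member windows. Other spellings of these sites were not searched, so the percentages are for these letters only. The letters were set with the members known, so a match and its rarity are no result about Spp1 or Icam1. The cAMP response element TGACGTCA was in 0 of the 5 member windows and in 1.55% of all windows. Its core TGACG, which the full element contains, was in 1 of the 5, that of Itgb1, and in 17.8% of all windows, and the AP-1 site TGANTCA was in 0 of the 5 and in 6.75%. A match gives the letters of these windows only, and no binding was measured.

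**Figure D1:**
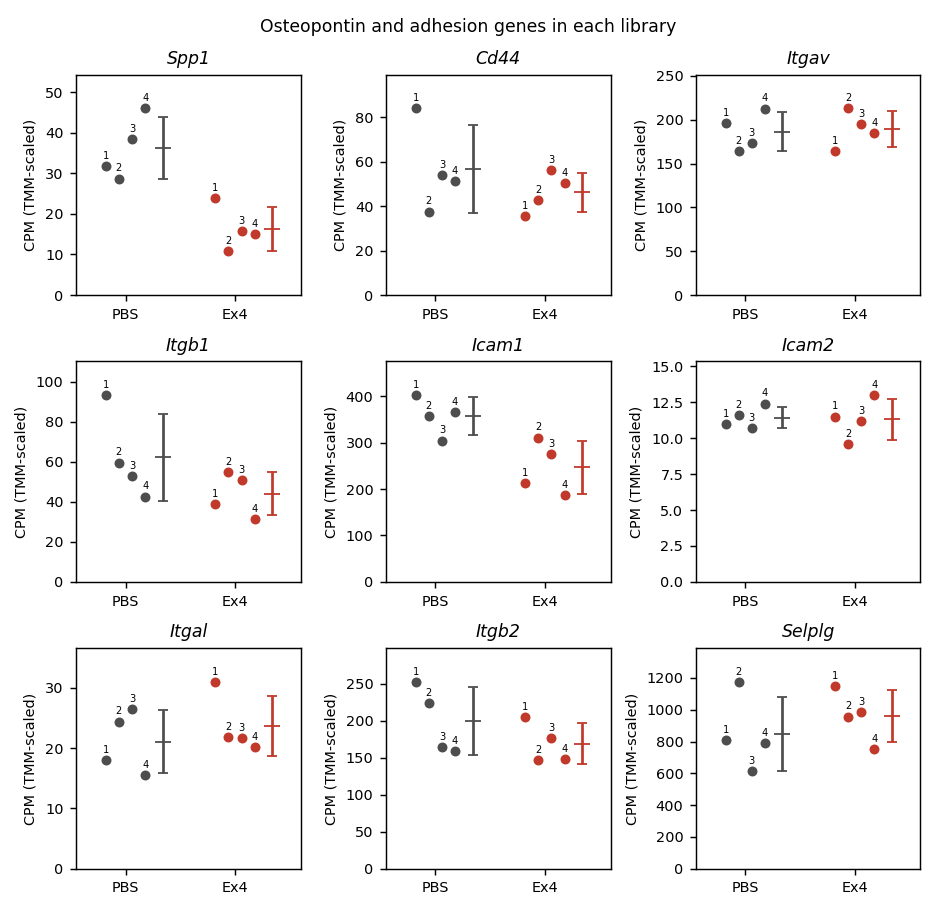
Level of each of the 9 genes (y axis, TMM-scaled CPM, starting at 0) in the 4 PBS and 4 Ex4 libraries, each point labelled with its replicate number, with the group mean ± SD beside the points. Spp1 is the panel in which every Ex4 point (10.9 to 23.9 CPM) lies below every PBS point (28.7 to 46.1 CPM).

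The ligand came first in the size of its difference. Spp1 was at 31.9, 28.7, 38.4 and 46.1 CPM in PBS 1 to 4 and at 23.9, 10.9, 15.7 and 15.0 CPM in Ex4 1 to 4. Every Ex4 library lay below every PBS library, and the nearest 2 were Ex4 1 and PBS 2. The means were 36.2 ± 7.68 CPM with PBS and 16.4 ± 5.43 CPM with Ex4 (SD, n = 4 mice each). The log2 fold change was -1.15 (SE 0.23, 95% interval -1.64 to -0.66) and did not pass over all genes (edgeR adjusted p = 0.253). DESeq2 gave -1.16 with an adjusted p of 0.00351, and edgeR without a filter on low counts gave -1.17 with an adjusted p of 0.0338. With each library left out in turn the log2 fold change stayed between -1.40 (without Ex4 1) and -1.01 (without Ex4 2), with edgeR adjusted p-values from 0.0981 to 0.577, and without PBS 2 and Ex4 3 together it was -1.23.

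Sample names in the labels carry numbers, whose meaning is not given. They run from 3 to 6, then 11, then 17 to 19, and were split here after 6. Spp1 was lower with Ex4 in both parts, as it had to be because its groups did not overlap. Among the libraries numbered 3 to 6 (PBS 1, PBS 2, Ex4 1 and Ex4 2) the difference of mean log2 CPM was -0.9, and among those numbered 11 to 19 it was -1.45, with 2 libraries per group in each. The summed epithelial markers, which like Spp1 had lower fitted means with Ex4, were 501.3, 578.1, 1182.5 and 739.9 CPM in PBS 1 to 4 and 287.3, 628.5, 566.9 and 561.7 CPM in Ex4 1 to 4. The 2 groups overlapped in this sum, unlike in Spp1. PBS 3 and PBS 4 were the highest 2 libraries both in that sum and in Spp1, while Ex4 1 was lowest in the sum and highest in Spp1 among the Ex4 libraries. The summed macrophage markers were 235.9, 96.2, 88.8 and 123.8 CPM in PBS 1 to 4 and 123.0, 182.5, 154.4 and 86.7 CPM in Ex4 1 to 4, and their groups overlapped. Fitted means were also lower with Ex4 for 5 of 6 tested mast cell markers and for 7 of 8 B and plasma cell markers. The part of any of these cell types in the Spp1 values was not tested.

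**Figure D2:**
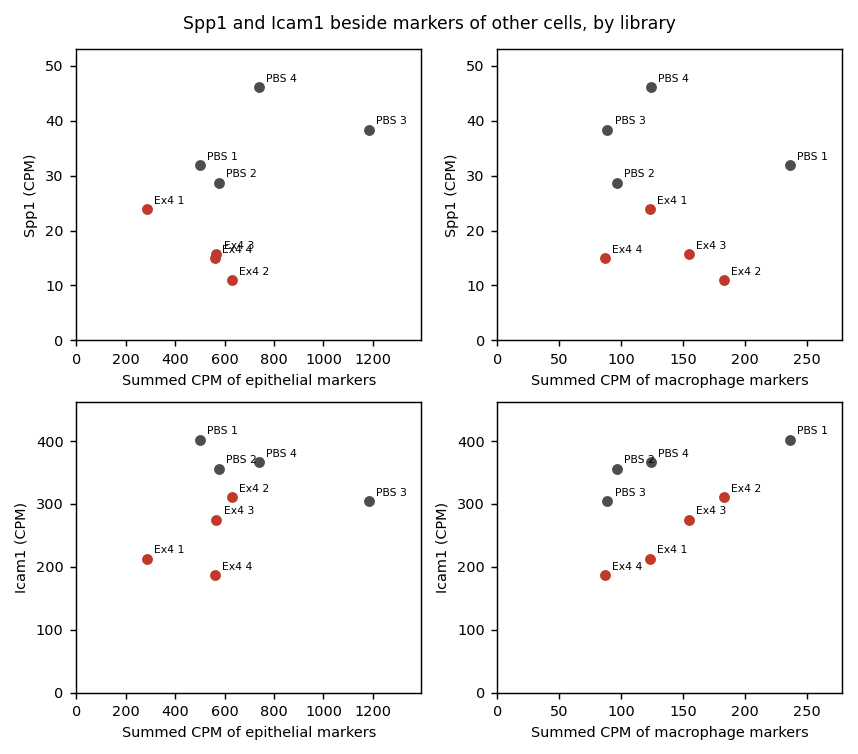
Spp1 and Icam1 (y axes, CPM) against the summed CPM of 12 epithelial markers (left) and of 12 macrophage and monocyte markers (right), one point per library, dark grey for PBS and red for Ex4. PBS 3 and PBS 4, highest in epithelial markers at 1182.5 and 739.9 CPM, are also highest in Spp1 at 38.4 and 46.1 CPM, and PBS 1 is highest in macrophage markers and in Icam1 (402.4 CPM).

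Osteopontin receptors gave no difference of that size. Cd44, on chromosome 2 from 102811141 to 102901665, encodes the hyaluronan and osteopontin receptor that marks activated T cells. It was at 84.0, 37.5, 53.9 and 51.1 CPM in PBS 1 to 4 and at 35.5, 42.7, 56.0 and 50.2 CPM in Ex4 1 to 4. PBS 1 stood above the other 7 libraries, and 3 of the 4 Ex4 values lay within the PBS range. Fitted over all libraries, the log2 fold change was -0.3 (SE 0.22, 95% interval -0.77 to 0.17, edgeR adjusted p = 0.812), and without PBS 1 it was -0.054. The counts are per gene, so the CD44 splice forms were not separated.

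Itgav, which encodes the αV chain shared by several osteopontin-binding integrins, lies on chromosome 2 from 83724397 to 83806916. It was at 195.8, 164.3, 173.5 and 212.6 CPM in PBS 1 to 4 and at 164.5, 213.2, 194.7 and 185.0 CPM in Ex4 1 to 4. The 2 groups covered almost the same range. For Itgav the log2 fold change was 0.02 (SE 0.13), with a 95% interval from -0.26 to 0.3 and an edgeR adjusted p of 0.984, and its sign turned when any of PBS 2, PBS 3, Ex4 2 or Ex4 3 was left out.

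Itgb1, on chromosome 8 from 128685654 to 128733200, encodes the β1 chain, a partner of αV and of most collagen, laminin and fibronectin receptors. It was at 93.3, 59.6, 53.0 and 42.6 CPM in PBS 1 to 4 and at 39.0, 54.9, 50.9 and 31.4 CPM in Ex4 1 to 4. PBS 1 was again the highest library, and 2 of the 4 Ex4 libraries lay below every PBS library. Its log2 fold change was -0.49 (SE 0.23, 95% interval -1.0 to 0.01, edgeR adjusted p = 0.659), and without PBS 1 it was -0.24.

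Of the ICAM ligands of LFA-1, Icam1 had the lower mean with Ex4 and Icam2 had similar values. Icam1, on chromosome 9 from 21015985 to 21028817, encodes an adhesion molecule that inflammatory signals induce through NF-κB. It was at 402.4, 356.2, 304.4 and 366.3 CPM in PBS 1 to 4 and at 213.2, 310.9, 274.9 and 187.0 CPM in Ex4 1 to 4. One Ex4 library, Ex4 2, lay within the PBS range, just above PBS 3, and the other 3 lay below it. The means were 357.3 ± 40.5 and 246.5 ± 56.6 CPM, with a log2 fold change of -0.54 (SE 0.16, 95% interval -0.89 to -0.18), which did not pass over all genes (edgeR adjusted p = 0.432, and 0.172 with DESeq2). The difference of mean log2 CPM was -0.56 in each of the 2 parts of the label numbers, split after 6. Within each group the 4 libraries had the same order in Icam1 and in the summed macrophage markers, from PBS 1 (402.4 and 235.9 CPM) down to PBS 3 (304.4 and 88.8 CPM) and from Ex4 2 (310.9 and 182.5 CPM) down to Ex4 4 (187.0 and 86.7 CPM). Between the groups the macrophage sums overlapped, and of the 12 markers 7 had a lower fitted mean with Ex4 and 5 a higher one. The match in order was noticed after the values were seen. The summed mast cell markers had the same order as Icam1 among the Ex4 libraries but not among the PBS libraries. The part of macrophages in the Icam1 values was not tested.

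Icam2, on chromosome 11 from 106377656 to 106388075, encodes the ICAM that lymphocytes and endothelium carry at rest. Its level was 11.0, 11.6, 10.7 and 12.4 CPM in PBS 1 to 4 and 11.5, 9.56, 11.2 and 13.0 CPM in Ex4 1 to 4. The values of the 2 groups interleaved, and the log2 fold change was -0.01 (SE 0.21), with a 95% interval from -0.47 to 0.44 (edgeR adjusted p = 0.994). Its sign turned with upper quartile scaling and without PBS 4 or Ex4 2. It was the shallowest member, with 184 to 326 counts per library.

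**Figure D3:**
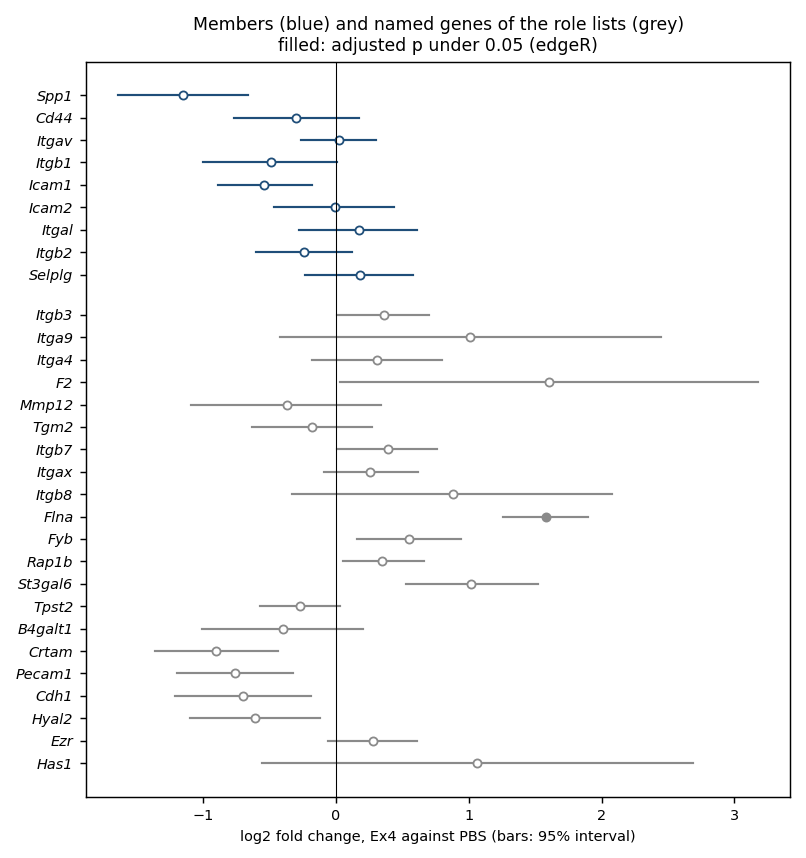
Log2 fold change of Ex4 against PBS (x axis) with its 95% interval for the 9 members (blue) and for the genes of the role lists named by rule (grey), filled where the edgeR adjusted p is under 0.05. Only Flna is filled, at 1.58, and among the members the intervals of Spp1 (-1.64 to -0.66) and Icam1 (-0.89 to -0.18) lie below 0 before adjustment over all genes.

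The LFA-1 chains overlapped between the groups. Itgal, on chromosome 7 from 127296260 to 127335138, encodes the αL chain, and it was at 18.0, 24.4, 26.5 and 15.5 CPM in PBS 1 to 4 and at 31.0, 21.9, 21.7 and 20.2 CPM in Ex4 1 to 4. Ex4 1 was the highest of the 8 libraries and the other 3 Ex4 values lay within the PBS range. Its log2 fold change was 0.17 (SE 0.21, 95% interval -0.28 to 0.61, edgeR adjusted p = 0.911), and leaving out Ex4 1 made it -0.005.

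Itgb2, on chromosome 10 from 77530252 to 77565708, encodes the β2 chain that LFA-1 shares with the other leukocyte integrins. It was at 252.3, 223.3, 164.5 and 158.5 CPM in PBS 1 to 4 and at 205.2, 146.9, 175.9 and 147.7 CPM in Ex4 1 to 4. PBS 1 and PBS 2 lay above all Ex4 libraries, while PBS 3 and PBS 4 lay among them. The log2 fold change was -0.24 (SE 0.17, 95% interval -0.6 to 0.12, edgeR adjusted p = 0.796), and -0.12 without PBS 1.

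Selplg, on chromosome 5 from 113818536 to 113832644, encodes PSGL-1 and was the most abundant member. It was at 808.9, 1175.3, 615.8 and 789.5 CPM in PBS 1 to 4 and at 1146.7, 957.0, 983.6 and 751.7 CPM in Ex4 1 to 4. All 4 Ex4 values lay within the PBS range. The log2 fold change was 0.18 (SE 0.19, 95% interval -0.23 to 0.58, edgeR adjusted p = 0.882), and 0.018 without PBS 3.

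Levels were compared between genes per kilobase of exon, on the exons of the coding transcripts. Over the 8 libraries the order ran from Selplg (487.1 ± 105.9 CPM per kb) through Icam1 (119.1 ± 29.5), Itgb2 (62.1 ± 13.0) and Itgav (26.6 ± 2.77 CPM per kb) to Spp1 (16.0 ± 7.45), Itgb1 (13.9 ± 4.9), Cd44 (9.09 ± 2.68), Icam2 (8.87 ± 0.818) and Itgal (3.51 ± 0.765 CPM per kb). Selplg, Itgb2 and Icam2 were each above the next gene with no overlap of their ranges, and Icam1 was above Itgb2 and Itgav above Spp1 within each of the 8 libraries although their ranges met. Spp1 and Itgb1 were not separated, with Spp1 higher in 5 of 8 libraries, nor were Cd44 and Icam2, with Cd44 higher in 4 of 8. Spp1 was at 22.0 ± 4.66 CPM per kb with PBS and 9.93 ± 3.3 CPM per kb with Ex4.

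Transcripts of the LFA-1 α chain were scarce beside those of the β2 chain. Itgb2 exceeded Itgal per kilobase 13.3 to 30.1 times in the 8 libraries. Among the 4 α chains that pair with β2, Itgal held 18.7 ± 4.57% of the summed CPM per kb with PBS and 18.0 ± 2.56% with Ex4. Itgax, which encodes CD11c, held 45.3 ± 3.28% and 47.6 ± 1.71%, and Itgad, which encodes CD11d, 32.5 ± 5.79% and 31.9 ± 4.13%. Itgam, the α chain of the myeloid integrin Mac-1, held 3.49 ± 2.25% and 2.4 ± 0.895%. These shares overlapped between the groups, and in all 8 libraries Itgax and Itgad were each above Itgal per kilobase. For Itgad that order depended on the division by exon length. In CPM, Itgal was above Itgad in PBS 3 (26.5 against 18.7 CPM) and in Ex4 1 (31.0 against 25.1 CPM).

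The chains that can pair with αV were mostly Itgb1 and Itgb3. Itgb1 held 76.8, 67.6, 72.2 and 65.4% of the summed CPM per kb of 5 β chains in PBS 1 to 4 and 55.5, 65.6, 62.0 and 47.0% in Ex4 1 to 4. Only Ex4 2 lay within the PBS range, just above PBS 4. Itgb3, the β chain of the vitronectin receptor that also binds osteopontin, held 21.4, 30.8, 24.0 and 29.6% in PBS 1 to 4 and 40.3, 32.2, 34.6 and 47.9% in Ex4 1 to 4, so that its share did not overlap between the groups. Its level did overlap, at 34.2 ± 7.2 and 43.8 ± 3.28 CPM (log2 fold change 0.36, SE 0.16, edgeR adjusted p = 0.636). Because such shares sum to 100%, a lower Itgb1 share and a higher Itgb3 share are one observation. Of all the shares computed here, that of Itgb3 was the only one whose groups did not overlap, with 30.8 and 32.2% as the nearest values. No background rate of such separation was computed for shares. Itgb5, Itgb6 and Itgb8 held at most 2.53, 2.17 and 2.89%.

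Among 8 α chains that pair with β1, Itgav held the largest share, 69.3 ± 3.07% with PBS and 67.2 ± 2.59% with Ex4. The collagen receptor chain Itga1 followed at 14.1 ± 2.66 and 12.9 ± 1.5%. Itgae, whose product pairs with the β7 chain and holds IELs to the epithelium, was more abundant than any of these at 86.4 CPM per kb with PBS. Of the 4 ICAM genes, Icam1 held 92.5 ± 0.795% of the summed CPM per kb with PBS and 89.0 ± 3.83% with Ex4.

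**Figure D4:**
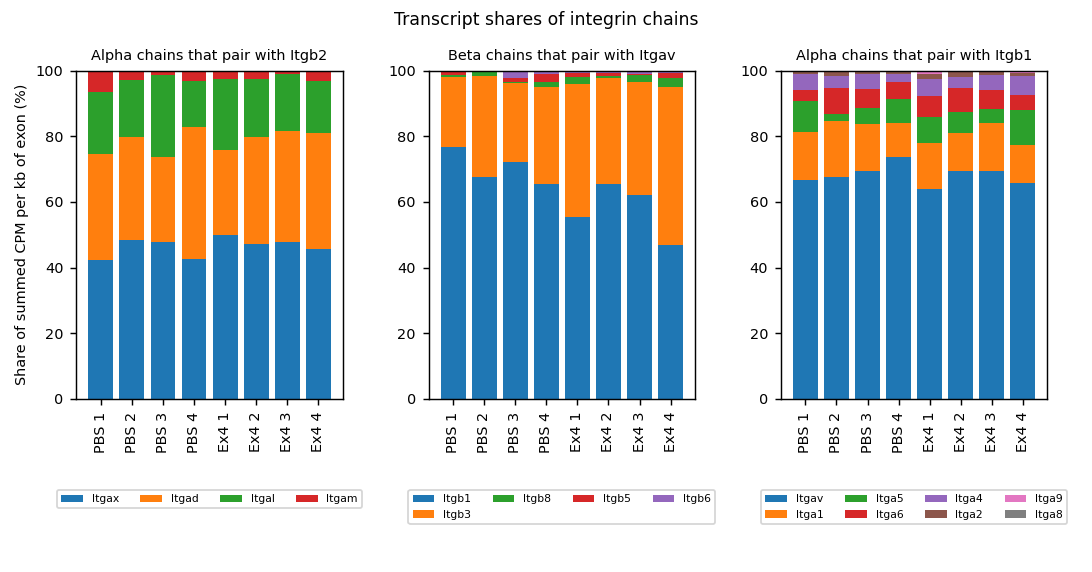
Share of the summed CPM per kb of exon (y axis, %) held by each chain in each of the 8 libraries, for the α chains that pair with Itgb2, the β chains that pair with Itgav and the α chains that pair with Itgb1. Itgax and Itgad together exceed Itgal in every library, and Itgb3 runs from 21.4 to 30.8% with PBS and 32.2 to 47.9% with Ex4.

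Other genes of osteopontin binding, integrin activation and leukocyte adhesion were taken from 7 lists set out by role, with 82 genes of which 74 were tested. In these lists 1 gene passed over all genes in the edgeR test, Flna, which was higher with Ex4, and 0 passed as lower. Of the 74, an unadjusted p under 0.05 was reached by 9 with Ex4 higher, where 3.71% of all genes were, and by 4 with Ex4 lower, where 3.9% were. The groups did not overlap for 4 of 74 genes in each direction, where 2.29% of all genes were higher and 2.66% lower. The lists were drawn up with earlier results of these libraries known. The median log2 fold change was 0.02, the same as over all genes tested.

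Flna encodes filamin A, which binds the tails of β integrin chains and links them to actin. It was at 49.5, 48.9, 38.1 and 37.9 CPM in PBS 1 to 4 and at 103.9, 135.1, 139.7 and 142.8 CPM in Ex4 1 to 4. All 4 Ex4 libraries lay above all 4 PBS libraries, with a log2 fold change of 1.58 (SE 0.15, edgeR adjusted p = 0.000451). Of the other 18 tested genes of integrin activation 0 passed, among them Tln1 (0.07) and Fermt3 (-0.23), whose products talin and kindlin-3 bind the β2 tail. Fyb, an adaptor between the T cell receptor and integrins, had 130.5 ± 39.9 and 190.9 ± 15.9 CPM (log2 fold change 0.55, edgeR adjusted p = 0.456), and Rap1b, the small GTPase that activates LFA-1, 613.2 ± 47.4 and 782.5 ± 125.1 CPM (0.35, 0.565 in the same test). Itgb1bp1, which encodes ICAP-1, an inhibitor of β1 integrin activation, was lower in every Ex4 library, at 98.0 ± 4.91 and 83.9 ± 3.66 CPM, and did not pass (edgeR adjusted p = 0.685). That gene was named after its values were seen.

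Of 6 tested further osteopontin receptor chains 0 passed (median log2 fold change 0.31). Itga4, a chain of VLA-4, had a log2 fold change of 0.31, and Itga9, which binds the osteopontin site exposed by thrombin, had 1.01 at 0.807 ± 0.482 and 1.64 ± 0.822 CPM. Of 5 tested genes that modify or cleave osteopontin 0 passed (median -0.18). Thrombin itself (F2) had only 3 to 27 counts per library, transglutaminase 2 (Tgm2) was at 84.8 ± 27.1 and 75.0 ± 12.8 CPM, and the macrophage elastase gene Mmp12 at 9.47 ± 3.5 and 7.29 ± 2.85 CPM. For F2 the groups did not overlap, on those few counts.

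Of 9 tested other leukocyte integrin chains 0 passed (median 0.21). Itgb7, the partner of Itgae, was at 169.0 ± 43.9 and 220.9 ± 31.5 CPM (log2 fold change 0.39, edgeR adjusted p = 0.636), Itgax at 35.2 ± 8.16 and 42.3 ± 4.15 CPM, and Itgb8 at 1.67 ± 0.738 and 3.08 ± 1.57 CPM.

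Of 11 tested selectin genes and genes for the sugars of PSGL-1 0 passed (median log2 fold change 0). St3gal6, a sialyltransferase that helps to build selectin ligands, was at 40.6, 92.9, 49.0 and 61.0 CPM in PBS 1 to 4 and at 122.3, 113.7, 157.1 and 102.5 CPM in Ex4 1 to 4. The lowest Ex4 library, Ex4 4, was above the highest PBS library, PBS 2, and the log2 fold change was 1.02 (SE 0.23, edgeR adjusted p = 0.31). DESeq2 called it (adjusted p = 0.0146), as did edgeR without PBS 2 (1.29, adjusted p = 0.0155). Tpst2, which sulfates PSGL-1, had a log2 fold change of -0.27 and B4galt1, a galactosyltransferase gene, of -0.4. Fut7, the fucosyltransferase of selectin ligands, did not pass the filter, at 0.44 ± 0.426 and 0.19 ± 0.258 CPM.

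Of 15 tested other adhesion ligands and receptors 0 passed (median -0.1). Crtam, a receptor of cytotoxic T cells for the adhesion molecule Cadm1, was at 453.8, 428.5, 424.2 and 384.2 CPM in PBS 1 to 4 and at 210.2, 300.6, 267.0 and 124.6 CPM in Ex4 1 to 4. Every Ex4 library lay below every PBS library (log2 fold change -0.9, SE 0.21, edgeR adjusted p = 0.31, and 0.022 with DESeq2). Pecam1, an adhesion molecule of endothelium and leukocytes, was at 65.4 ± 16.7 and 38.6 ± 9.93 CPM (-0.76, edgeR adjusted p = 0.354), with Ex4 2 at 49.1 and PBS 2 at 49.2 CPM as the nearest libraries. Cdh1, the gene of E-cadherin, which the αE integrin binds, was at 35.4 ± 13.9 and 21.8 ± 4.64 CPM (-0.7, edgeR adjusted p = 0.473), and -0.39 without PBS 1. The poliovirus receptor gene Pvr, at 20.4 ± 4.39 and 28.4 ± 3.86 CPM, did not overlap between the groups, and Cd2, which encodes a T cell adhesion receptor, was at 22.6 ± 7.93 and 39.8 ± 14.9 CPM. Both were named after their values were seen.

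Of 9 tested genes for ligands of CD44 and for the proteins that tie it to the cell cortex 0 passed (median -0.07). Hyal2, a hyaluronidase gene, was at 17.4 ± 5.03 and 11.4 ± 1.32 CPM, with every Ex4 library below every PBS library (-0.61, edgeR adjusted p = 0.538). Ezr, the gene of the linker ezrin, had a log2 fold change of 0.28. The hyaluronan synthase gene Has1 was under 2 CPM in every library, and Has2 had 0 counts in all 8.

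Likeness to Spp1 was ranked over 8640 genes averaging 3 log2 CPM or more, without predicted genes, clone-named genes and antigen receptor segments. Most like it in log2 CPM over the 8 libraries were Mob1b (Pearson r = 0.96), Tmem185b (0.95), Mthfd2 (0.95), Dph1 (0.95) and Hmgxb3 (0.94). The most opposite were Ecm1 (-0.99), Dhrs7 (-0.96) and Fam117b (-0.96). These values rank genes over 8 points that share the 2 treatment groups and are no test. After each group was centred on its own mean they were 0.87, 0.85, 0.8, 0.83 and 0.94 for the first 5 and -0.95, -0.92 and -0.82 for the last 3. The 8 genes were picked as extremes of 8640 on these same libraries, so the centred values are no test either. None of these 8 passed the edgeR test between groups, and their log2 fold changes ran from -0.66 (Dph1) to 0.47 (Ecm1). The other members were less like Spp1, the highest being Icam1 at 0.51, which was -0.5 after centring.

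**Figure D5:**
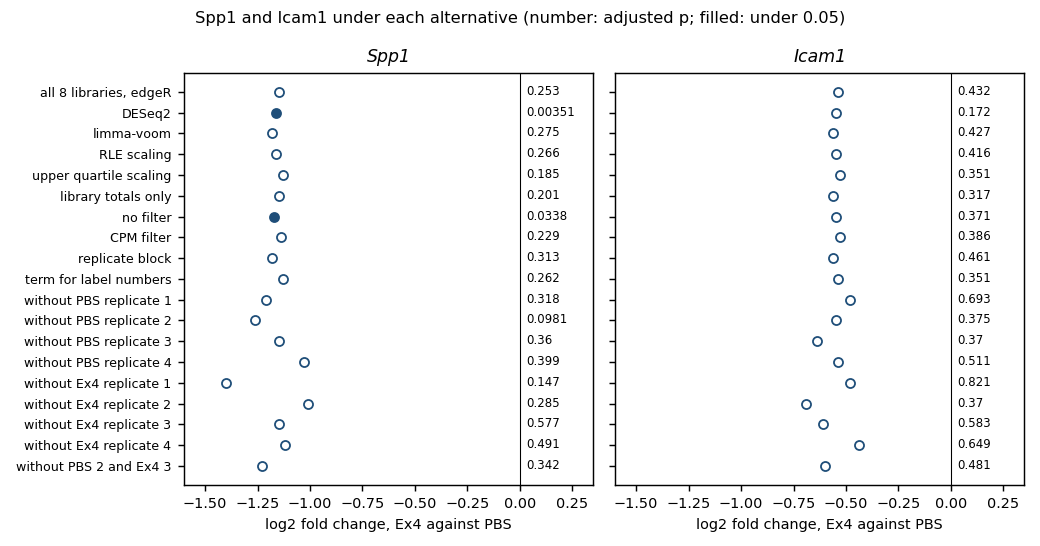
Log2 fold change of Ex4 against PBS (x axis) for Spp1 and Icam1 with all 8 libraries and under each of 18 alternatives (rows), with the adjusted p beside each and filled points under 0.05. Spp1 stays between -1.40 and -1.01 and is filled with DESeq2 and without a filter on low counts, and Icam1 stays between -0.69 and -0.44 and is filled in none.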

How the data were processed

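Counts per gene symbol, not normalised, were deposited by the authors for 8 libraries. The submitters' processing notes list STAR 2.7.9a, DESeq2 and mm10 with no roles. How reads were counted, with which strand setting and annotation, is not given in the sources used here. Each column was matched to a mouse by its label and 0 were left unused. Counts were tested with edgeR 4.0.16 in R 4.3.3 (filterByExpr by group, TMM, robust quasi-likelihood test, Benjamini-Hochberg over 14691 genes, threshold 0.05). SEs came from the F statistic and 95% intervals from its degrees of freedom. DESeq2 1.42.0 and limma 3.58.1 (voom) were alternatives, with other scalings, filters and left-out libraries. Log2 CPM used a prior count of 2. CPM per kb used the exon union of coding transcripts in GENCODE M21. Members and lists were chosen with earlier results of these data known. Named genes were the members, genes of the 7 role lists that passed and the 3 smallest p-values of each list. The rule also took the 5 genes most like Spp1 and the 3 most opposite to it. Outside that rule, Tln1, Fermt3, Fut7, Has2, Itgae, Itgb1bp1, Pvr, Cd2, the marker genes and the integrin chains given as shares were named after their values were seen. The labels describe mice but no litter, cage or day. Replicates of a group differed by more than sampling noise (mean chi-square per gene 22.1 to 82.7), so all 8 counted separately. Same-numbered libraries did not deviate together in every pair, so the numbers were not taken as pairs. Figures were drawn with matplotlib 3.10.9.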

Additional observations from a re-analysis of the deposited data

Results flagged for a closer look

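For members, named genes and chain shares, the distance of an extreme library from its nearest fellow was taken as a fraction of its group's spread. It passed Dixon's 95% limit in 5 of 98 groups of 4, where about 1 in 20 would by chance. No member was among them, and no explanation was tested.

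Itgax was high in Ex4 1 at 5.60 log2 CPM against 5.35 for its neighbour (ratio 0.861). Itgb8 was low in Ex4 2 at -0.18 against 1.79 log2 CPM (ratio 0.858). Cdh1 was high in PBS 1 at 5.81 against 4.89 log2 CPM (ratio 0.884). PBS 1 had the lowest epithelial marker sum of the PBS libraries, 501.3 CPM, but single markers differed. Over all libraries, Epcam (183.9 CPM) and Lgals4 (7.27 CPM) were highest in PBS 1, and Krt8 (18.9 CPM) was lowest there. The Itga2 share of the α chains that pair with β1 was high in PBS 2 at 1.37% against 0.75% (ratio 0.913). The Itga8 share was above 0 only in PBS 4 among the PBS libraries, at 0.02% (ratio 1.000), on few counts.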

How the results depend on the processing

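Of the 9 members, 0 were called by edgeR with all 8 libraries, 1 (Spp1) by DESeq2 and 1 (Spp1) by edgeR with no filter, and 0 with any single library left out. Over all genes, 2 were called by edgeR, 54 by DESeq2, 1 by limma-voom and 8 with no filter. With the replicate block 1 was called, and 1 with a term for the label numbers split after 6. With 1 library left out, 1 to 14 were called, the 14 without PBS 2. Of the role lists, 1 gene was called, 3 by DESeq2 (Flna, St3gal6 and Crtam), and 1 to 2 with one library left out. Spp1 had a log2 fold change of -1.18 with the replicate block (edgeR adjusted p = 0.313), and the block changed no call of a member or role gene. The correlation of deviations in same-numbered pairs was 0.09, -0.027, -0.235 and 0.144. With one library left out, signs turned for the members Itgav (-0.061 to 0.07), Icam2 (-0.095 to 0.043) and Itgal (-0.005 to 0.26), and for Tgm2 of the osteopontin processing list (-0.36 to 0.022). Itgav was -0.06 without both PBS 2 and Ex4 3, an alternative chosen after seeing the data, and Icam2 was 0.0082 with upper quartile scaling. Causes were not tested. Without division by exon length, also chosen later, the Itgal share of the β2 α chains was 25.2% with PBS and 24.4% with Ex4. The Itgb1 share of the αV β chains and the Icam1 share of the ICAM genes also moved by at least the group SD, in both groups. So did the Itgav share of the β1 α chains with PBS. Icam2 was the member with the fewest counts, 184 to 326 per library, so counting noise is a larger part of its spread, and 4 mice per group limit the precision of all.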
